A study of Mus musculus with 9 samples.

Results

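The genes described here are 10 markers of Kupffer cells, the resident macrophages of the liver: Clec4f, Vsig4, Timd4, Marco, Adgre1, Csf1r, C1qa, C1qb, C1qc and Cd5l. They were chosen by name, and each probe that the array annotation assigns to a member was taken. This gave 14 probes for 10 genes, of 45281 probes and 19057 named genes in all. Whole-liver RNA was measured on Illumina bead arrays, 3 in each of 3 groups. All mice were C57BL/6 males, 8 weeks old. The euthyroid group is labelled as the control. The T3 group received triiodothyronine, the active thyroid hormone, for 3 days. The third group received T3 and an siRNA against FoxO1, brought into the liver by hydrodynamic injection into the tail vein, which forces a large volume rapidly into the circulation. The labels name no group injected with a control siRNA, so the effects of the injection and of the FoxO1 siRNA cannot be told apart. Nothing in them ties an array to its own mouse, and p-values then measure the spread between these samples, which may be technical.

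Kupffer cells line the hepatic sinusoids and clear particles, bacteria, aged erythrocytes and lipoproteins from portal blood. They are seeded before birth, maintain themselves under control of the receptor encoded by Csf1r, and in the mouse are marked by Clec4f, a lectin that other macrophages largely lack. When resident cells are lost or the liver is injured, blood monocytes can enter, become macrophages and acquire resident markers over time, with Timd4 among the late ones. In whole-liver RNA, more cells of a type and more RNA per cell cannot be told apart. In the hepatocyte-rich liver these transcripts come from a minority of cells.

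The median signal of the arrays was between 109 and 127, and 36.4% to 40.5% of probes were detected, that is, had a detection p-value under 0.05. The normalized log2 signal of Foxo1 was 8.72, 8.87 and 8.73 on the euthyroid arrays, 9.22, 9.63 and 9.78 on the T3 arrays and 8.44, 8.55 and 8.44 on the siRNA arrays. Every siRNA array was thus below every T3 array for Foxo1 (log2 fold change -1.07 ± 0.14, SE, adjusted p = 0.00172). Against euthyroid liver the siRNA difference was -0.30 ± 0.14 and was not called (adjusted p = 0.152). A dimmer Foxo1 probe read 6.76, 6.89 and 6.94, then 6.81, 7.13 and 6.80, then 6.45, 6.08 and 5.97 in the same order. On it the euthyroid and T3 arrays overlapped, and the siRNA arrays lay below both. All fold changes below are differences of normalized log2 signal with the SE of the fit and n = 3 arrays per group, and each adjusted p is over all 10408 genes tested unless the probes are named. A gene with several tested probes is represented by its brightest probe, and levels of different probes are not compared. The comparisons share arrays, so their results are not independent.

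Of the 14 probes, 12 were detected on all 9 arrays and entered the tests, which covers 9 of the 10 genes. Cd5l, a secreted scavenger protein of macrophages also known as AIM, had 1 probe, with signals between 83.6 and 103 and detection p-values between 0.627 and 0.988. It was at background on every array, and no change can be given for it. The third Adgre1 probe was likewise not detected on any array, with signals between 90.3 and 116. Clec4f, Vsig4, Timd4 and Marco, the members most specific to resident cells, were thus all measured in all groups.

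The promoters of a few members are shown: those of Vsig4, C1qb and C1qc, which were called higher in the siRNA group, and that of Clec4f, which was not called. The sequences are the 150 bases before the gene start, from RefSeq on GRCm38.p6, written 5′ to 3′ on the gene's strand. Capitals mark matches to GAGGAA, a core of the site of PU.1, the myeloid ETS factor, or to TGCTGA, a partial site of the Maf factors. Both strands were searched. The windows are chr6:83656117-83656266 (minus strand) for Clec4f, chrX:96293439-96293588 (minus) for Vsig4, chr4:136886201-136886350 (minus) for C1qb and chr4:136892915-136893064 (minus) for C1qc.
Clec4f: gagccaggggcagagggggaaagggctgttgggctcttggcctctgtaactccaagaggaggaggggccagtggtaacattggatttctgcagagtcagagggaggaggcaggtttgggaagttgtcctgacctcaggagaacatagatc
Vsig4: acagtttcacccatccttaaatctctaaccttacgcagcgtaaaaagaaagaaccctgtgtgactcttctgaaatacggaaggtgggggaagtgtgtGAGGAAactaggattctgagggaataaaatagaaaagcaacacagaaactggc
C1qb: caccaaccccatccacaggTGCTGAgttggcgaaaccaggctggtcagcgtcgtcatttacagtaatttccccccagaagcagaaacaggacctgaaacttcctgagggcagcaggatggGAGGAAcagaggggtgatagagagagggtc
C1qc: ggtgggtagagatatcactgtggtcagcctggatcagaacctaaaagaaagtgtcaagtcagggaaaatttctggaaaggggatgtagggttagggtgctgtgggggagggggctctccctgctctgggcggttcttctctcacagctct
The promoter table held 7 of the 10 members: Clec4f, Vsig4, C1qb, C1qc, Marco, Cd5l and Timd4. GAGGAA was present in the windows of Vsig4, 48 bases before the start, C1qb, 25 bases before it, Marco and Cd5l, and in 14.5% of the 32851 windows of all genes. TGCTGA was present in C1qb, Cd5l and Timd4 and in 10.1% of all windows. The FoxO site GTAAACA, present in 1.8% of all windows, and the direct repeat of AGGTCA with a spacer of 4 bases, bound by thyroid hormone and liver X receptors, present in 0.0152%, had no match in these 7 windows. Matches describe letters in these windows only.

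Among the surface receptors, Clec4f did not separate the groups. Its normalized log2 signal was 10.39, 10.63 and 10.48 on the euthyroid arrays, 10.43, 10.47 and 10.35 with T3, and 10.22, 10.59 and 10.13 with T3 and the siRNA. The 3 groups overlap. The differences were -0.08 ± 0.13 for T3 against euthyroid (adjusted p = 0.716) and -0.10 ± 0.13 for siRNA against T3 (adjusted p = 0.617). The 95% interval of the latter, -0.40 to 0.19, leaves room for a change in either direction. The dimmer Clec4f probe was 7.38, 7.75 and 7.67 in euthyroid liver, 7.50, 8.02 and 7.67 with T3, and 7.70, 8.04 and 7.35 with the siRNA, and overlapped as well. Clec4f had no settled sign for T3 against euthyroid, where it was 0.026 with the probes averaged. Nor had it for siRNA against T3, with 0.023 under median scaling over all probes and 0.010 with array weights. For siRNA against euthyroid it gave -0.18 ± 0.13 (adjusted p = 0.338), was not called and stayed negative in all 18 alternatives (-0.32 to -0.05). The dimmer probe alone gave 0.09 there (adjusted p = 0.77 over the probes).

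Vsig4, the complement receptor CRIg that captures C3-coated particles, was higher on every siRNA array. Its normalized log2 signal was 11.27, 11.12 and 11.37 in euthyroid liver, 11.47, 11.50 and 11.46 with T3, and 12.22, 11.99 and 12.25 with T3 and the siRNA. Every siRNA array was above every T3 array, and every T3 array above every euthyroid array. Vsig4 rose 1.60-fold with the siRNA against T3 (0.67 ± 0.11, adjusted p = 0.00421). Against euthyroid liver it rose 1.87-fold (0.90 ± 0.11, adjusted p = 0.00104), while T3 alone gave 0.23 ± 0.11 (adjusted p = 0.177).

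Timd4, the phosphatidylserine receptor Tim4 through which macrophages take up apoptotic cells, was 8.12, 8.23 and 8.33 in euthyroid liver. It was 8.49, 8.71 and 8.60 with T3, above every euthyroid array, and 8.93, 8.86 and 8.49 with T3 and the siRNA, which overlaps T3. The difference for T3 was 0.37 ± 0.13 (adjusted p = 0.0819) and that for siRNA against T3 was 0.16 ± 0.13 (adjusted p = 0.422). Timd4 rose 1.45-fold in the siRNA group against euthyroid liver (0.53 ± 0.13, adjusted p = 0.0183). That call was lost when euthyroid replicate 1, euthyroid replicate 2, siRNA replicate 1 or siRNA replicate 2 was left out, with adjusted p between 0.0513 and 0.0666. The T3 difference passed when siRNA replicate 3 was left out (adjusted p = 0.0395). That array is in neither group and enters through the shared normalization, the shared spread and the filter.

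Marco, a scavenger receptor for bacteria and particles, varied most between arrays. It was 7.51, 8.20 and 7.86 in euthyroid liver, 8.38, 8.52 and 8.81 with T3, and 8.04, 9.72 and 8.97 with T3 and the siRNA. The T3 arrays lay above the euthyroid arrays, but the siRNA arrays spanned both groups. No comparison passed, with 0.71 ± 0.36 for T3 (adjusted p = 0.198), 0.34 ± 0.36 for siRNA against T3 (adjusted p = 0.552) and 1.05 ± 0.36 for siRNA against euthyroid (adjusted p = 0.0602). The siRNA difference from T3 rests on siRNA replicate 2, the highest array, and was -0.066 without it. Against euthyroid liver Marco passed in 7 of 18 alternative settings, among them the omission of siRNA replicate 1, the lowest siRNA array (1.49, adjusted p = 0.0072).

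**Figure D1:**
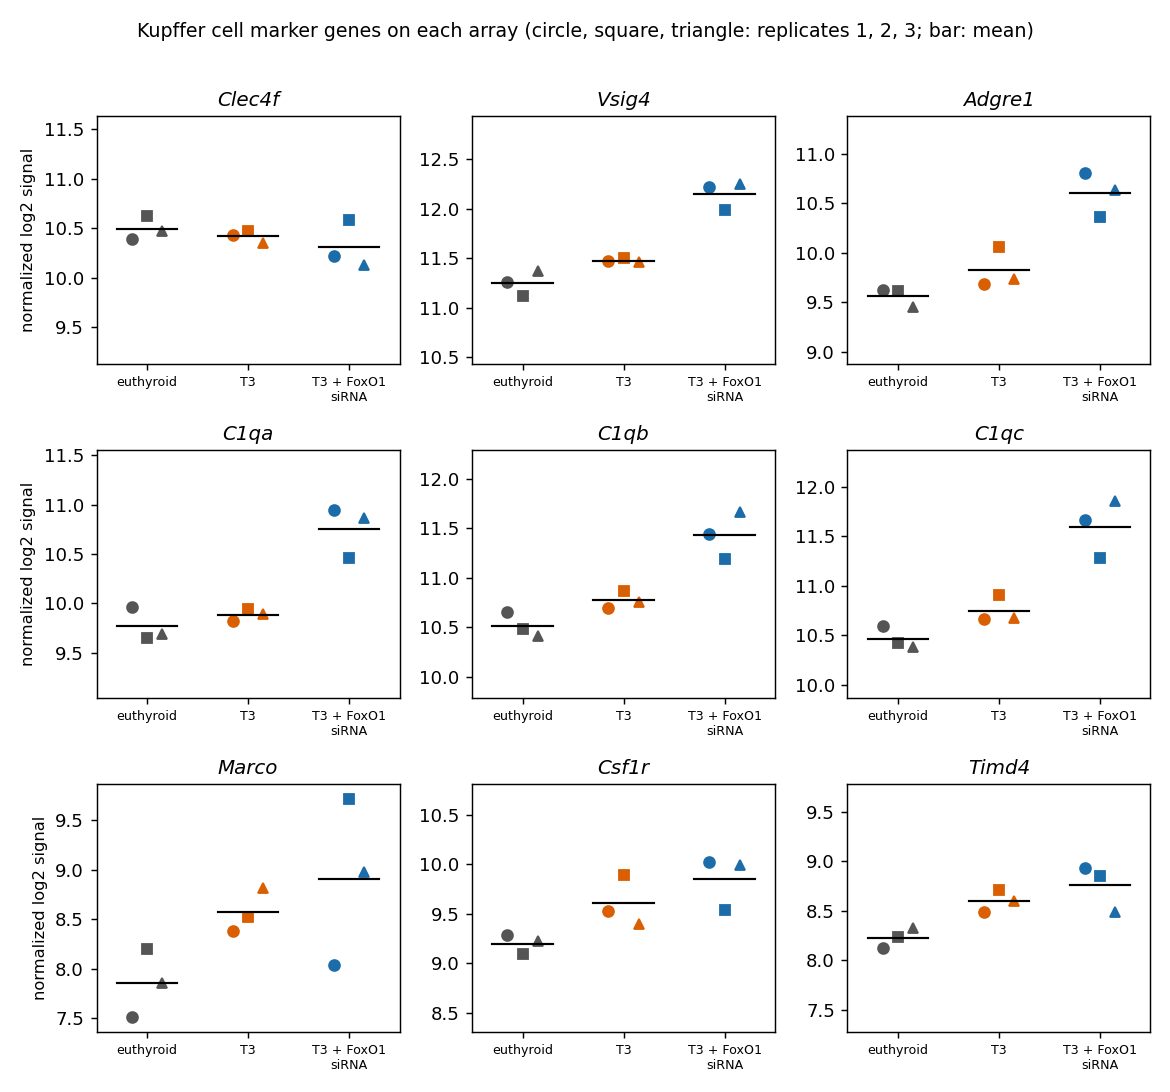
Normalized log2 signal of the 9 tested marker genes on each array, by group (euthyroid, T3, T3 plus FoxO1 siRNA); symbols are single arrays, bars are group means, and each panel spans the same number of log2 units around its own range. Vsig4, Adgre1 and the 3 C1q genes sit higher on all siRNA arrays than on all T3 arrays, whereas Clec4f overlaps in all groups.

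Adgre1 encodes the adhesion receptor by which mouse macrophages are usually identified. Its brightest probe read 9.62, 9.62 and 9.45 in euthyroid liver, 9.68, 10.06 and 9.73 with T3, and 10.81, 10.36 and 10.64 with T3 and the siRNA. The siRNA arrays stood apart from both other groups. Adgre1 rose 1.72-fold against T3 (0.78 ± 0.15, adjusted p = 0.00766) and 2.06-fold against euthyroid liver (1.04 ± 0.15, adjusted p = 0.0018). The second probe gave 0.74 ± 0.19 against T3 (adjusted p = 0.0334 over 18581 probes) and 1.08 ± 0.19 against euthyroid liver (adjusted p = 0.00527 over the probes). T3 alone gave 0.26 ± 0.15 on the brightest probe (adjusted p = 0.236).

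Csf1r encodes the receptor for CSF1, the main macrophage growth factor. It was 9.28, 9.10 and 9.22 in euthyroid liver, 9.53, 9.90 and 9.40 with T3, and 10.02, 9.54 and 9.99 with T3 and the siRNA. T3 and siRNA arrays overlap, and both lie above the euthyroid arrays. The difference was 0.41 ± 0.17 for T3 (adjusted p = 0.119) and 0.25 ± 0.17 for siRNA against T3 (adjusted p = 0.33). Against euthyroid liver Csf1r rose 1.57-fold with the siRNA (0.65 ± 0.17, adjusted p = 0.0202), and 0.70 ± 0.20 on the dimmer probe (adjusted p = 0.0298 over the probes). The call on the brighter probe was lost when euthyroid replicate 2 or 3 or siRNA replicate 1 or 3 was left out (adjusted p between 0.05004 and 0.0694).

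C1qa, C1qb and C1qc encode the 3 chains of C1q, the recognition protein of the classical complement pathway, which in liver is made by macrophages. The genes are neighbours on chromosome 4, and they moved together. C1qa was 9.96, 9.65 and 9.69 in euthyroid liver, 9.82, 9.94 and 9.90 with T3, and 10.94, 10.46 and 10.86 with T3 and the siRNA. The euthyroid and T3 arrays overlap, and all siRNA arrays lie above both.

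C1qb was 10.65, 10.48 and 10.41 in euthyroid liver, 10.69, 10.87 and 10.75 with T3, and 11.44, 11.19 and 11.67 with T3 and the siRNA. C1qc was 10.59, 10.42 and 10.38, then 10.67, 10.90 and 10.67, then 11.66, 11.28 and 11.85 in the same order. For both genes the 3 groups did not overlap, with the siRNA arrays highest, and siRNA replicate 2 was the lowest siRNA array for all 3 chains. Against T3, C1qa rose 1.83-fold (0.87 ± 0.15, adjusted p = 0.00478), C1qb 1.58-fold (0.66 ± 0.13, adjusted p = 0.0105) and C1qc 1.80-fold (0.85 ± 0.15, adjusted p = 0.00635). Against euthyroid liver the rises were 1.98-fold, 1.90-fold and 2.19-fold (adjusted p of 0.00223, 0.00212 and 0.00153). For T3 alone the differences were 0.12, 0.26 and 0.28, with adjusted p of 0.612, 0.207 and 0.223.

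Counted over the 9 tested genes, none passed for T3 against euthyroid liver in the limma fit, where 18.4% of all genes passed, 7.8% as higher. At an unadjusted p under 0.05 there were 2, Csf1r and Timd4. The T3 arrays lay wholly above the euthyroid arrays for 7 of the 9, against 16.5% of all genes. The median difference was 0.26, beside -0.05 over all genes. For siRNA against T3, 5 of 9 rose and none fell (Vsig4, Adgre1, C1qa, C1qb and C1qc), where 19.5% of all genes passed, 11.7% as higher. The siRNA arrays lay wholly above the T3 arrays for the same 5, against 20.8% of all genes, and the median was 0.66 beside 0.01. For siRNA against euthyroid liver 7 of 9 rose, the same 5 with Csf1r and Timd4, where 26.7% of all genes passed, 13.4% as higher. Groups did not overlap for 7, against 22.1% of all genes, and the median was 0.92 beside -0.02. The 5 genes called against T3 were called in all 18 alternative settings. The count against euthyroid liver ranged from 5, without euthyroid replicate 2, to 8. Since these genes were taken as a marker set with earlier results known, the counts are descriptions and no test was made of the set.

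**Figure D2:**
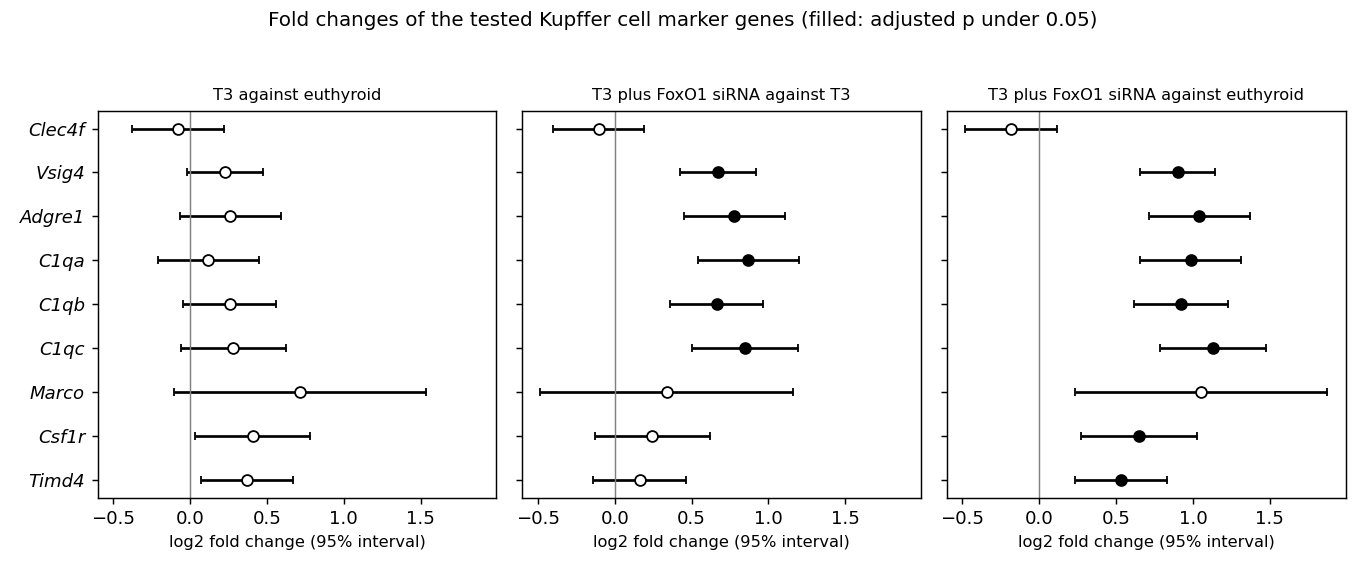
Log2 fold change of each tested marker gene with its 95% interval in the 3 comparisons; filled points have an adjusted p under 0.05 over all 10408 genes. No point is filled for T3 against euthyroid, 5 are for siRNA against T3 and 7 for siRNA against euthyroid.

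The levels of the other 8 genes are also given relative to Clec4f on the same array. Clec4f was taken as the reference after its values were seen, because its groups overlapped, so these ratios largely restate each gene's own difference and add no support to the calls. Relative to Clec4f, the siRNA arrays lay above all T3 arrays for Vsig4 (difference of log2 ratio 0.78), Adgre1 (0.88), C1qa (0.97), C1qb (0.77), C1qc (0.96) and Timd4 (0.27). For Marco (0.44) and Csf1r (0.35) the arrays overlapped. The relative level of C1qc, with its euthyroid mean set to 0, was 0.26, 0.46 and 0.35 with T3 and 1.47, 0.73 and 1.75 with the siRNA. The siRNA replicate 2 array was nearest to T3 for Vsig4, Adgre1 and the 3 C1q genes. Between T3 and euthyroid arrays the ratio to Clec4f overlapped for C1qa and C1qb and not for the other 6 genes. Clec4f itself had an SD of 0.24 (n = 3) among the siRNA arrays and 0.06 (n = 3) among the T3 arrays, which enters every ratio.

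**Figure D3:**
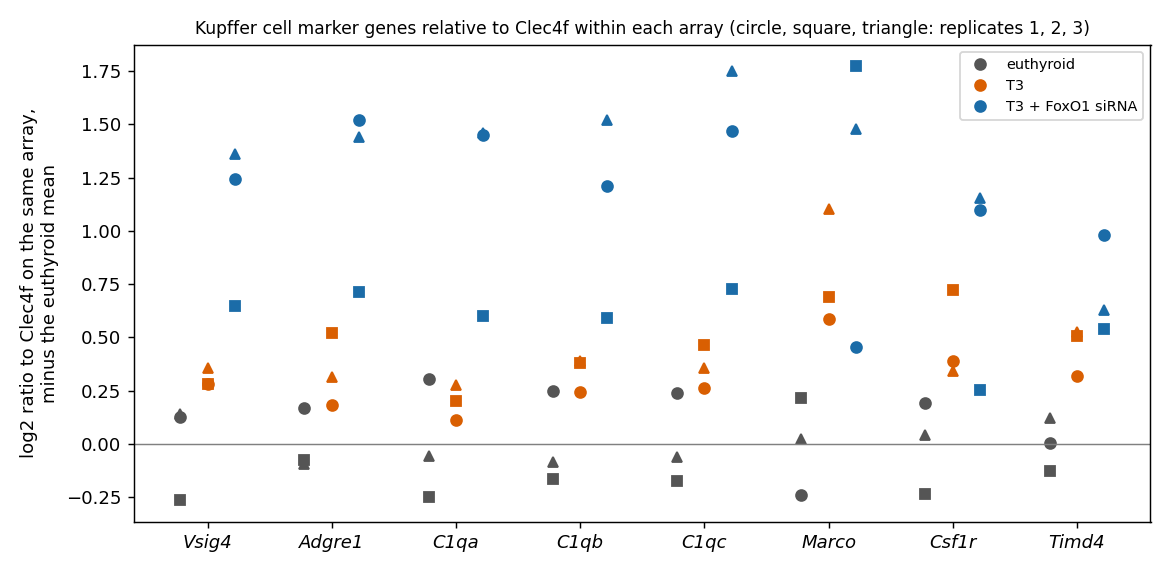
Log2 ratio of 8 marker genes to Clec4f on the same array, minus the mean of the euthyroid arrays; symbols are single arrays and colours are groups. For Vsig4, Adgre1 and the 3 C1q genes all siRNA arrays lie above all T3 arrays, with replicate 2 lowest, and for Marco and Csf1r the siRNA and T3 arrays overlap.

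Across the 9 arrays, C1qb and C1qc followed each other most closely (Pearson r = 0.997), and Vsig4, Adgre1 and the C1q genes correlated with each other at 0.95 to 0.997. The brightest Clec4f probe had r between -0.69 and 0.08 against the other members, with a median of -0.66, though its groups overlapped. The dimmer Clec4f probe, with differences of 0.13, -0.04 and 0.09 in the order of the comparisons, did not enter these values. Marco was the loosest of the remaining genes, at a median of 0.45. These values describe 9 arrays in 3 groups, share their arrays and contain the group differences. The genes most like C1qa over the 9 arrays were Tmem273 (r = 0.980), Plekha1 (0.979) and Psap (0.979), the last encoding prosaposin, a lysosomal protein precursor. Those most like Csf1r were Polr3e (0.942), Fmnl2 (0.936) and Gosr2 (0.934). Those most like Clec4f were Klhdc10 (0.873), Marf1 (0.870) and Yipf6 (0.868).

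Of the other genes linked to Kupffer cells, a minority rose with the siRNA against T3 and most rose against euthyroid liver. Of 23 listed, 20 were tested. With T3, 5 rose (Siglec1 by 0.75 ± 0.13, adjusted p = 0.00582; Fcna by 0.68, Hpgd by 0.46, Hmox1 by 0.72, Ccl24 by 0.78) and Sirpa fell (-0.70 ± 0.16, adjusted p = 0.0195). Siglec1 encodes the sialic acid receptor CD169, Fcna is a ficolin and Sirpa encodes the CD47 receptor that restrains phagocytosis. The calls of Hmox1 and Ccl24 held in 10 and 9 of 18 alternatives, and that of Sirpa in 13. With median scaling over all probes 1 listed gene was called higher and none lower. With the siRNA against T3, 7 rose and none fell, led by Sirpa (1.47 ± 0.16, adjusted p = 0.000753), Clec4n, which encodes Dectin-2 (1.72 ± 0.20, adjusted p = 0.000835), and the efferocytosis kinase Axl (0.95 ± 0.11, adjusted p = 0.000922). Slc11a1, the phagosomal metal transporter, also rose (0.50). The count was 3 without siRNA replicate 3. Against euthyroid liver 16 rose and none fell, among them Siglec1 (1.14) and Ccl24 (1.31), and 10 without euthyroid replicate 1. The medians were 0.25, 0.38 and 0.62 in the order of the comparisons.

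Transcription factors of the Kupffer cell program changed in both directions. Of 8 tested, Zeb2 (-0.79 ± 0.14, adjusted p = 0.00709) and Nr1h3 (-0.40 ± 0.09, adjusted p = 0.0181) fell with T3 and none rose. Nr1h3 encodes liver X receptor alpha, and its 2 probes disagreed, the dimmer giving 0.70 (adjusted p = 0.0384 over the probes). With the siRNA against T3 Id3 (0.78), Id1 (0.71) and Zeb2 (0.51) rose, and only 1 was called without T3 replicate 1. Against euthyroid liver Id1 (1.00) and Spi1 (0.71) rose. Spi1 encodes PU.1, and was detected on 1, 2 and 3 arrays of the euthyroid, T3 and siRNA groups.

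Most tested genes shared by macrophages and other myeloid cells rose in the siRNA group. Of 14 tested, Lyz2 rose with T3 (0.69 ± 0.18, adjusted p = 0.0303), a call lost in 7 of 18 alternatives. With the siRNA against T3 9 rose, among them the lysosomal Laptm5 (1.37 ± 0.13, adjusted p = 0.000511), the lipopolysaccharide co-receptor Cd14 (1.74 ± 0.18, adjusted p = 0.000606) and galectin-3, Lgals3 (2.00 ± 0.23, adjusted p = 0.000826). Fcer1g, the Fc receptor gamma chain, rose by 1.15. Their summed normalized signal was 9625 to 10241 on the euthyroid arrays, 9353 to 10641 with T3 and 18007 to 26852 with the siRNA. That of the 9 markers was 9334 to 9819, 10650 to 11893 and 15184 to 18278. The marker sum thus did not overlap between any groups, whereas the shared myeloid sum overlapped between euthyroid and T3. The sum of the 20 other Kupffer genes also separated euthyroid (30587 to 32388) from T3 (34414 to 44426), and overlapped between T3 and siRNA (43472 to 50633). Such sums weigh the brightest probes most, and no single marker was called for T3. Ptprc and Itgam were not detected on enough arrays to be tested.

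Genes of monocyte-derived and lipid-associated macrophages, which Kupffer cells of healthy liver carry little of, included 3 falls with T3 and mostly rose with the siRNA. Of 10 tested, Trem2 (-1.32 ± 0.27, adjusted p = 0.0116), Cx3cr1 (-0.85, adjusted p = 0.0204) and Gpnmb (at least 1.77-fold, adjusted p = 0.0479) fell with T3. Trem2 and Cx3cr1 were each detected on 1 of 3 T3 arrays, so the size of their fall depends on the background treatment, with values up to -0.53 and -0.32 in the alternatives. The Gpnmb call was lost in 11 of 17 alternatives (adjusted p up to 0.202), and none of these 3 genes passes a filter that asks for detection on all 9 arrays. Against T3, 7 rose with the siRNA, with Trem2, a lipid-sensing receptor, at 2.96 ± 0.27 (adjusted p = 0.000328), Cx3cr1 at 1.71 and Clec7a, which encodes Dectin-1, at 1.89. For the same lack of detection with T3 the first of these values fell to 1.49 and the second to 0.71 in an alternative, while both were called in all 17. Gpnmb, a lysosomal glycoprotein, was not detected on any T3 array, where the lowest detected signal stands in for it, and it was at least 25.5-fold higher with the siRNA, or at least 16.5-fold without siRNA replicate 3. Fabp5 fell (-1.07 ± 0.27, adjusted p = 0.0256). The median was 1.48, or 1.35 with genes undetected in T3 at their bound, and only 3 rose when detection on all 9 arrays was required. The summed signal was 2092 to 2350, 2215 to 2651 and 5070 to 8634 in the order of the groups. Ccr2, S100a4 and Vcan, which mark entering monocytes, failed the filter, with at most 2 arrays detected, while Plac8 rose by 0.79 and Chil3 gave 0.90 (adjusted p = 0.149). The part of these cells in the higher marker levels was not tested.

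**Figure D4:**
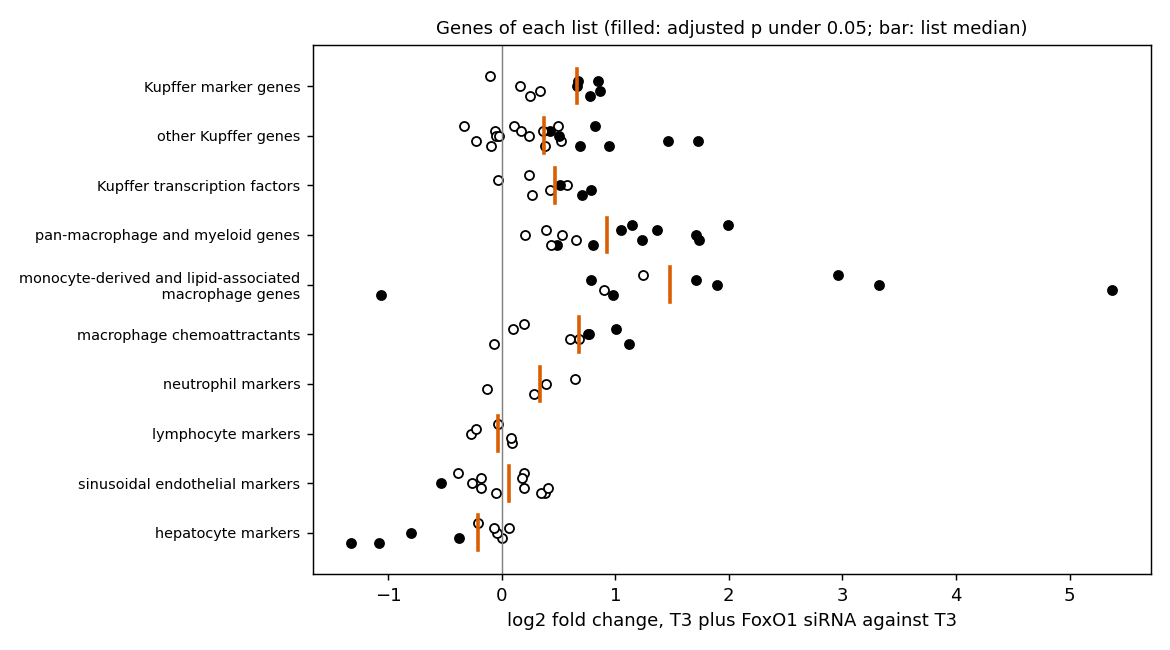
Log2 fold change, T3 plus FoxO1 siRNA against T3, of each tested gene by list; filled points have an adjusted p under 0.05 over all genes and bars are list medians. The marker genes lie between -0.10 and 0.87, and the monocyte-derived and lipid-associated list reaches furthest to the right, where the fitted values of Gpnmb and Mmp12 rest on T3 arrays without detection.

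Of the growth factor and niche signals, Csf1, the ligand of Csf1r, rose with the siRNA against T3 (0.63 ± 0.15, adjusted p = 0.0213), as did Tgfb1 (0.51 ± 0.12, adjusted p = 0.016), of 3 tested. Both were lost without siRNA replicate 3. Il34, Csf2, Bmp2, Bmp10 and Dll4 failed the filter. Of 9 macrophage chemoattractants, Ccl6 rose (1.04, adjusted p = 0.0398) and Cxcl16 fell (-0.39, adjusted p = 0.0355) with T3. These calls held in 9 and 8 of 18 alternatives. Against euthyroid liver 4 were higher in the siRNA group, Ccl6 among them (1.81, adjusted p = 0.00337), and 1 without euthyroid replicate 2. For siRNA against T3, Cxcl16 (0.76), Ccl4 (1.12) and Ccl7 rose. Ccl7 was not detected on the T3 arrays and was at least 1.37-fold higher. The other Cxcl16 probe gave 0.07 against T3, and 1 chemoattractant was called higher there when detection on all 9 arrays was required. Ccl2, the main attractant of monocytes, was detected on at most 1 array.

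Few genes of the proteins that act with C1q were called. Of 8 tested partners and regulators, 1 rose with the siRNA against T3, Cd93 (1.01 ± 0.14, adjusted p = 0.00227), a receptor also found on endothelium. The C1 protease subunit C1s1 gave 0.05 ± 0.17 (adjusted p = 0.864) and the C1 inhibitor Serping1 -0.11 ± 0.10 (adjusted p = 0.447). C1ra was dim, detected on 3 of the 9 arrays in all. The C4b probes disagreed. Against T3 the brightest gave -0.08 and the dimmer ones -0.30 and -0.51 (adjusted p = 0.232 and 0.0324 over the probes). With T3 alone the brightest gave -0.10 and the dimmer ones 0.72 each (adjusted p = 0.017 and 0.00763). Against euthyroid liver C1rl was lower in the siRNA group (-0.67, adjusted p = 0.00245), with -0.31 on its other probe (adjusted p = 0.14 over the probes). It was already lower with T3 alone (-0.51, adjusted p = 0.011), though not on the other probe (0.02, adjusted p = 0.931 over the probes). For siRNA against T3 the 2 probes gave -0.16 (adjusted p = 0.298) and -0.33 (adjusted p = 0.146 over the probes). C1qbp rose with T3 (0.35, adjusted p = 0.0491), a call that held in 5 of 18 alternatives. Among 8 scavenger and lipid receptors, 2 were called for siRNA against T3. Msr1, the macrophage class A receptor, gave 0.60 ± 0.16 (adjusted p = 0.034) and Cd209f -0.39 ± 0.11 (adjusted p = 0.0359). Both calls were fragile: Msr1 was called in 9 of 18 alternatives and Cd209f in 5. With T3 alone Scarb1 rose (0.69, adjusted p = 0.0126, called in 17 of 18 alternatives) and Stab1 fell (-0.49, adjusted p = 0.0128, called in all 18). Against euthyroid liver Msr1 was higher (0.60, adjusted p = 0.0275) and Stab1 lower (-0.54, adjusted p = 0.00577) in the siRNA group. There the dimmer Stab1 probes gave -0.68 and 0.06 (adjusted p = 0.0341 and 0.86 over the probes). With median scaling over the kept probes 3 C1 partners were called lower against T3 and 4 against euthyroid liver.

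Markers of other cells were compared to show which of them moved with the macrophage genes. Of 4 tested neutrophil genes, none was called in any comparison in the limma fit, and at an unadjusted p under 0.05 the counts were 0, 1 and 2. Without siRNA replicate 2, 2 were called in each siRNA comparison. Their summed signal was 555 to 740, 651 to 744 and 631 to 1367 in the order of the groups, and 7 others, Mpo, Elane and Cxcr2 among them, were detected on at most 2 arrays. Of 12 sinusoidal endothelial genes, from the cells that Kupffer cells sit on, Dnase1l3 fell in both siRNA comparisons (-0.53 ± 0.11 against T3, adjusted p = 0.0111) and no other was called. Against euthyroid liver 8 of the 12 had an unadjusted p under 0.05, with Cdh5 (0.35) and Fcgr2b (0.31) higher and the others lower. With median scaling over the kept probes 6 were called lower. Their sum was 16060 to 16790 in euthyroid liver, 14925 to 16195 with T3 and 13012 to 14961 with the siRNA. Of 5 lymphocyte genes Cd3g gave 0.69 with T3 (adjusted p = 0.0433), a call lost in 10 of 18 alternatives, and none was called in the siRNA comparisons, at an unadjusted p under 0.05 either. Of 9 hepatocyte genes 3 were called higher with T3, Hnf4a (0.49, adjusted p = 0.0196) among them, and 2 lower. With median scaling over all probes none was called higher. With the siRNA against T3 4 fell (Hpd -0.80, Alb -1.08, Fgb -1.33, Hnf4a -0.37), and 1 without siRNA replicate 3. Against euthyroid liver 1 was higher and 4 lower, and Hnf4a gave 0.12 (adjusted p = 0.483). The sums were 149523 to 150958 in euthyroid liver, 157175 to 160966 with T3 and 144512 to 156703 with the siRNA. The siRNA range thus contains the euthyroid one. Fgb was dim with the siRNA, at 6.28, 5.29 and 5.25, and its call against T3 held in 12 of 17 alternatives. The Alb probe read 9.17, 10.24 and 9.26 with T3 and 8.35, 8.63 and 8.47 with the siRNA. Whether the Alb and Fgb probes report the main transcripts was not tested. The Hnf4a call for siRNA against T3 held in 6 of 18 alternatives. The part of any of these in the marker results was not tested.

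T3 replicate 2 had the highest mean signal of all arrays, 760.5, against 571.7 to 688.9 on the others, and the highest unnormalized signal of the T3 arrays for all 9 genes, with Vsig4 at 3584 against 2430 and 2691. After normalization the median deviation of the 9 genes from their euthyroid means was 0.20, 0.44 and 0.21 on the T3 arrays. On the siRNA arrays it was 0.93, 0.69 and 1.08, and on no siRNA array below any T3 array. None of the 9 genes was called for T3 without T3 replicate 2.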

How the data were processed

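The authors deposited unnormalized signal intensities and, per the file headers, detection p-values. They also deposited a linear intensity table whose sorted values match the quantile means of the signals. The submitters' processing notes name Partek 6.6. The signals were read in R 4.3.3 with limma 3.58.1. Background correction used neqc with negative controls inferred from those p-values (offset 16), then quantile normalization and log2. Probes with detection p under 0.05 on at least 3 of 9 arrays were kept (18581 of 45281), and the brightest probe per symbol gave 10408 genes. A limma fit of 3 group means (lmFit, eBayes) gave two-sided p-values, adjusted by Benjamini-Hochberg across genes, called under 0.05. A second such fit over the 18581 probes covered further probes.

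In simulated data for siRNA against T3 the fit recovered 29.9% of 1.5-fold, 80.6% of 2-fold and 97% of 4-fold changes, and 3.5% of calls were false. False shares were 5.13% for T3 against euthyroid and 7.69% for siRNA against euthyroid, where 28.4%, 70.1% and 100% were recovered. The simulation changed 67, 67 and 66 genes by 1.5-fold, 2-fold and 4-fold, with normal noise. That is far fewer than the genes called in these data, so its shares need not hold here. Named are all members, Foxo1, per list up to 4 called genes with the lowest adjusted p per comparison, and the 3 genes most correlated with C1qa, Csf1r and Clec4f. Genes of counts of 5 or fewer, undetected markers and list genes given as not passing were added after their values were seen. The members, the 12 other lists and the tests were chosen with earlier results of these data known. Titles gave groups and replicate numbers. The number of arrays limits precision. Same-numbered arrays did not deviate together (correlations from -0.06 to 0.03). Bounds written "at least" compare the detected group's mean with the lowest signal of detected probes on each array, or the gene's own where higher.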

Additional observations from a re-analysis of the deposited data

How the results depend on the processing

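Across 18 alternative settings (background, authors' quantile-normalized values, median scaling, detection filters, probe averaging, a replicate block, array weights and each array left out), Vsig4, Adgre1, C1qa, C1qb and C1qc were called higher in both siRNA comparisons in all of them. Median scaling over all probes was chosen after seeing the data. The genes called were 1917 for T3 against euthyroid, and 916 with median scaling over all probes. Leaving out 1 array gave 896 (without euthyroid replicate 1) to 2033 for that comparison, 1147 (without siRNA replicate 3) to 1774 for siRNA against T3 (2025 with all arrays), and 1695 (without euthyroid replicate 1) to 2943 for siRNA against euthyroid (2779), which was 1778 with median scaling over all probes. Fewer arrays also mean fewer degrees of freedom, and the cause was not tested. Without siRNA replicate 3, 1 marker, Timd4, was called for T3. Signs turned for Clec4f, to 0.026 for T3 with probes averaged, and to 0.023 with median scaling over all probes and 0.010 with array weights for siRNA against T3. Marco for siRNA against T3 ranged from -0.066 (without siRNA replicate 2) to 0.78 with 1 array left out. The share of calls that were higher for siRNA against T3 was 60.3%, 38.7% with median scaling over the kept probes and 88.7% over all probes, which moved the median of all genes to -0.10 and 0.17. Slide as a block was not run, since the headers name no slide.

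With the replicate number as a block, 1522, 1659 and 2364 genes were called, and 0, 5 and 8 markers, with Marco the added one. None of the 9 arrays correlated best with its own number in each of the other groups. Between groups, same-numbered arrays had correlations from -0.056 to 0.028, within the range for differently numbered arrays, -0.064 to 0.081. Values this near 0 gave no sign of pairing by number, but they cannot exclude it.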
